A study of Sus scrofa and Rattus norvegicus with 8 samples.

Results

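The insulin-like growth factor (IGF) axis was described in white fat of the pig: the ligands IGF1 and IGF2, the receptors IGF1R and IGF2R, and the binding proteins IGFBP2, IGFBP3, IGFBP4, IGFBP5, IGFBP6 and IGFBP7. Members were chosen by gene symbol, and a symbol was matched to the Ensembl gene IDs of the pig table through a table of pig gene names. Of the 10 listed genes 8 had a named ID, among 14844 named nuclear genes and 25880 IDs in all. IGF2 and IGFBP3 had no ID under that name and were not analysed here.

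The RNA came from the upper layer of backfat, the outer subcutaneous depot, of female Bama pigs, a small Chinese breed, that were adults of 2 years. Total RNA was depleted of ribosomal RNA and sequenced as stranded libraries on an Illumina sequencer. There were 6 pig libraries, numbered as replicates and called pig 1 to pig 6, all of the same breed, sex, age and depot, with no treatment named in the labels. The labels do not state that each replicate was a separate animal. The study's methods name as many such pigs as sources of this depot for its chromatin work, without tying these libraries to them, so every p-value takes the library as its unit. Another 2 libraries of the series, from inguinal fat of female SD rats, were not used here.

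IGFs are small secreted hormones related to insulin. IGF1 is released by the liver into blood under growth hormone and is also made locally in fat, where IGF signalling promotes the growth of preadipocytes and their differentiation into adipocytes. Both ligands signal through the tyrosine kinase IGF1R, whereas IGF2R carries IGF2 to lysosomes for degradation and also sorts lysosomal enzymes. Most IGF outside cells is held by binding proteins, which prolong its life in blood, keep it from the receptor or concentrate it in the matrix, until proteases cut the binding protein and free the ligand.

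Values are TPM, a transcript abundance corrected for length that sums to the same total in every library. In pigs 4 and 5 named nuclear genes held only 3.34% and 4.73% of the total, against 24.1% to 26.3% in the other 4 libraries, and the deposited TPM of most named genes above a low level were lower in both. Each value is therefore given as deposited and also rescaled, within each library, so that the named nuclear genes sum to 1000000. Ratios and shares within a library do not change with this step. All 10 adipocyte markers had values above 0 in every library, with a rescaled sum of 20712 to 37281 TPM, and ADIPOQ, the adipocyte hormone adiponectin, lay between 2437 and 3746 rescaled TPM. The rescaled sum of 9 liver markers was 1272, 1413 and 1709 TPM in pigs 2, 4 and 5 against 209 to 597 in pigs 1, 3 and 6. ALB, serum albumin, made up most of the sum in pigs 2, 4 and 5, at 794, 772 and 1091 TPM. APOA1 was at 154 and 254 TPM in pigs 4 and 5 against 136 to 207 TPM in the other 4 libraries. In both pigs 4 and 5, 3 of 9 liver markers were above the other 4 libraries. The rescaled sum of 7 endothelial markers was 668 and 805 TPM in pigs 4 and 5 against 1188 to 1527 in the others. In these bulk libraries fewer cells of a type and less RNA per cell cannot be told apart.

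The coding sequences of the binding proteins show how the family members resemble each other. Binding proteins of the IGF family share a cysteine-rich N-terminal domain that holds the ligand. Its signature was searched in frame on the coding strand as the codons for glycine, cysteine, glycine, cysteine and cysteine, any 2 codons, and cysteine. It was present in 4 of 6 binding proteins and in 8 of 20575 pig genes with a RefSeq coding model (0.0389%). The stretches are shown 5′ to 3′ from Sscrofa11.1, with the cysteine codons in capitals, and lie at chr15:118822388-118822411 (plus strand) for IGFBP2, chr18:50003223-50003246 (plus) for IGFBP3, chr12:21979864-21979887 (minus) for IGFBP4, chr15:118877614-118877637 (minus) for IGFBP5 and chr8:56357594-56357617 (minus) for IGFBP7.

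IGFBP2: ggcTGCggcTGCTGCtctgtgTGC
IGFBP3: ggcTGCggcTGCTGCctgaccTGC
IGFBP4: ggcTGCggcTGTTGCgccactTGC
IGFBP5: ggcTGCggcTGCTGCatgaccTGC
IGFBP7: gcgTGCggcTGCTGCccggtgTGC

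IGFBP7, a more distant relative that binds IGFs weakly, matched only when the first codon was left free, a looser form that includes the strict one and was found in 18 genes (0.0875%). IGFBP6, which prefers IGF2 as its ligand, matched neither form, so it is not shown. A second signature, that of the thyroglobulin type 1 domain near the C terminus (codons for cysteine, tryptophan, cysteine and valine), was present in 5 of 6 binding proteins, all but IGFBP7, and in 17 genes (0.0826%). The codons for arginine, glycine and aspartate, a tripeptide that integrins recognise, were found in IGFBP2 alone of the 6, at chr15:118850539-118850565 on the plus strand. They are in capitals in the stretch that follows, and 1631 genes (7.93%) hold such a tripeptide somewhere.

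IGFBP2: cccaccatcCGGGGGGACcccgagtgt

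All 8 measured members were detected at over 0.1 TPM in all 6 libraries, and 5 of 8 were over 1 TPM in every library. By comparison, 67.2% of all named nuclear genes were detected in every library and 89.9% in at least 1. The median over the members of the mean rescaled level was 111.7 TPM, against 16.7 TPM over all named nuclear genes.

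IGF1 (ENSSSCG00000000857, on chromosome 5 from 81762027 to 81909253, plus strand, 4 exons in the longest RefSeq transcript) was the only ligand with a value. It stood at 40.9, 27.0, 30.7, 0.874, 3.43 and 14.9 TPM in pigs 1 to 6 as deposited, 19.7 ± 15.9 TPM (SD, n = 6). After rescaling it was at 163.8, 112, 117, 26.2, 72.5 and 56.7 TPM, 91.4 ± 49.3 TPM, and higher than 85.5% of named nuclear genes. Pig 1 was highest and pig 4 lowest on both scales, and on the rescaled scale pig 6 lay below pig 5, so pigs 4 and 5 overlapped the rest. The highest rescaled value was 6.26-fold the lowest, and the coefficient of variation (CV, the SD over the mean) of 0.539 exceeded that of 89.0% of the 8866 named nuclear genes whose rescaled mean reached 10 TPM.

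The signalling receptor IGF1R (ENSSSCG00000030560, chromosome 1, 137383623 to 137691038, minus strand, 21 exons) was at 15.3, 14.8, 9.29, 0.599, 0.441 and 16.2 TPM in pigs 1 to 6 as deposited, 9.44 ± 7.33 TPM (SD, n = 6). Its rescaled values were 61.4, 61.2, 35.5, 17.9, 9.32 and 61.6 TPM, 41.2 ± 23.7 TPM. Pigs 1, 2 and 6 were nearly level, pig 3 lay below them, and pigs 4 and 5 were lowest. The clearance receptor IGF2R (ENSSSCG00000004044, chromosome 1, 7369485 to 7472480, minus strand, 48 exons) was at 19.2, 14.8, 20.2, 1.14, 1.55 and 18.6 TPM as deposited, 12.6 ± 8.89 TPM, and at 77.0, 61.3, 77.1, 34.1, 32.8 and 70.4 TPM after rescaling, 58.8 ± 20.5 TPM. Pigs 4 and 5 again lay below the other 4, which on the rescaled scale had a mean of 71.5 ± 7.45 TPM (SD, n = 4) for IGF2R and 54.9 ± 13.0 TPM for IGF1R.

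IGF2R exceeded IGF1R in 6 of 6 libraries, by a mean log2 ratio of 0.73 ± 0.68 (SD), with an exact two-sided sign-flip permutation p of 0.03125, the smallest that 6 libraries can give, and 0.0461 after Benjamini-Hochberg adjustment over 28 pairs of members. The fold of IGF2R over IGF1R was 1.25, 1.00, 2.17, 1.90, 3.52 and 1.14 in pigs 1 to 6, so that in pig 2 the receptors were practically level. Without pigs 4 and 5 the mean log2 ratio was 0.41, and 4 libraries cannot give an exact p below 0.125.

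Of the 5 binding proteins with a value, IGFBP5 was the most abundant on average. IGFBP5 (ENSSSCG00000025924, chromosome 15, 118861816 to 118877787, minus strand, 4 exons) binds extracellular matrix as well as IGF. It was at 313.7, 60.9, 182.5, 10.2, 11.8 and 171.6 TPM in pigs 1 to 6 as deposited, 125 ± 119 TPM (SD, n = 6), and at 1255, 253, 697, 304, 249 and 651 TPM after rescaling, 568 ± 392 TPM. Pig 1 stood highest and pigs 2, 4 and 5 formed the low end. These were also the libraries with the highest liver marker sums, as given above, and a link between IGFBP5 and composition was not tested. Its rescaled mean ranked 213 of 14844 named nuclear genes, and its CV of 0.689 exceeded that of 97.0% of those 8866 genes.

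IGFBP7 (ENSSSCG00000008913, chromosome 8, 56283089 to 56357822, minus strand, 5 exons) is a secreted matrix protein known from vessel walls. It was at 103, 102, 105, 8.20, 17.2 and 63.2 TPM as deposited, 66.5 ± 44.6 TPM (SD, n = 6), and at 413, 424, 400.5, 245, 363 and 239.8 TPM after rescaling, 348 ± 83.9 TPM. The lowest rescaled value was that of pig 6, with pig 4 next to it, and the highest was 1.77-fold the lowest, the narrowest range of the 8 members. Its CV of 0.241 exceeded that of 40.3% of the genes compared.

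IGFBP4 (ENSSSCG00000017472, chromosome 12, 21966524 to 21980043, minus strand, 4 exons) keeps IGF from its receptor until the protease PAPPA cuts it. It was at 64.4, 47.4, 72.2, 4.17, 9.95 and 84.0 TPM as deposited, 47.0 ± 33.2 TPM (SD, n = 6), and at 258, 197, 276, 125, 210.2 and 319 TPM after rescaling, 231 ± 68.3 TPM. Pig 6 was highest, pig 4 lowest, and pig 5 lay above pig 2 on the rescaled scale.

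IGFBP6 (ENSSSCG00000000261, chromosome 5, 18352884 to 18357225, plus strand, 4 exons) was at 29.0, 16.6, 20.9, 6.79, 12.0 and 18.4 TPM as deposited, 17.3 ± 7.61 TPM (SD, n = 6), and at 116, 69.0, 79.7, 203, 254 and 69.9 TPM after rescaling, 132 ± 78.5 TPM. The order of the libraries turned over between the scales: pigs 4 and 5 were the lowest as deposited and the highest after rescaling. The same held for IGFBP2 (ENSSSCG00000035392, chromosome 15, 118822092 to 118850985, plus strand, 4 exons), a binding protein of white preadipocytes. IGFBP2 was at 2.27, 1.65, 2.07, 0.601, 0.739 and 2.57 TPM as deposited, 1.65 ± 0.817 TPM, and at 9.09, 6.86, 7.91, 18.0, 15.6 and 9.74 TPM after rescaling, 11.2 ± 4.51 TPM. It was the lowest of the 8 members, above 42.2% of named nuclear genes. IGFBP2 lies 10830 bases from IGFBP5 on chromosome 15, on the opposite strand, and the neighbours stood at opposite ends of the members' levels.

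**Figure D1:**
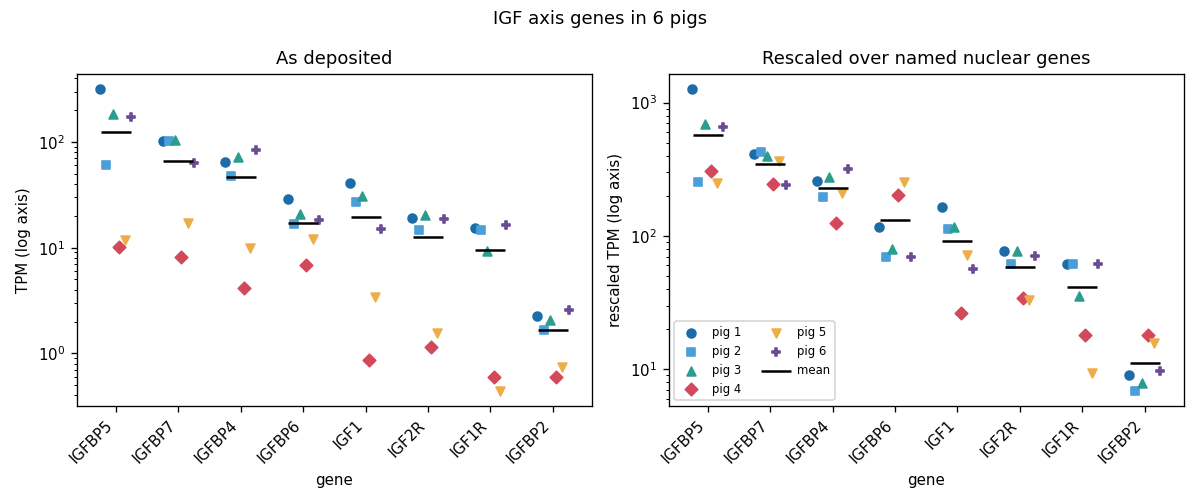
TPM of the 8 measured members in each of 6 pig libraries on a log axis, as deposited and rescaled over named nuclear genes, with 1 point per library and the mean over the 6. As deposited, pigs 4 and 5 lie below the other 4 libraries for every member, whereas after rescaling they lie below for IGF1R and IGF2R, above for IGFBP2 and IGFBP6, and among the others for the remaining 4.

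Ordered by the mean of log2 TPM, which no factor per library can alter, the members ran IGFBP5, IGFBP7, IGFBP4, IGFBP6, IGF1, IGF2R, IGF1R and IGFBP2, with geometric means of 64.4, 46.3, 30.3, 15.7, 10.7, 7.57, 4.56 and 1.44 TPM as deposited. Of the 28 pairs 19 were called at an adjusted p of at most 0.05, each in one direction in 6 of 6 libraries, each with an exact permutation p of 0.03125 and an adjusted p of 0.0461. Among all pairs of those 8866 genes 69.7% were in one direction in 6 of 6 libraries, so the members' 19 of 28 was near that background. Because a comparison of levels between genes rests on the transcript lengths behind TPM, which are not given in the sources used here, it carries any error in those lengths.

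Transcripts of the abundant binding proteins stood above those of the measured ligand, IGF1. IGFBP5 exceeded IGF1 by a log2 ratio of 2.59 ± 0.95 (SD, n = 6), or 6.01-fold, IGFBP7 exceeded it by 2.11 ± 0.64, or 4.31-fold, and IGFBP4 exceeded it 2.82-fold with an SD of 0.75 in log2, all called by the exact permutation test. IGFBP4 was also called over IGF2R, by 2.00 ± 0.38, the smallest spread of any pair, and IGFBP5 over IGFBP4, by 1.09 ± 0.74. The widest gap was that of IGFBP5 over IGFBP2, at 5.49 ± 1.28 or 44.8-fold. IGFBP6 exceeded IGFBP2 by 3.45 ± 0.39, with a fold between 7.18 and 16.3 in the 6 libraries.

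Of the 7 pairs of neighbours in the order, only IGF2R and IGF1R were called. IGFBP5 exceeded IGFBP7 in 4 of 6 libraries, by 0.48 ± 0.99 in log2 (exact permutation p = 0.281, adjusted 0.292), with pigs 2 and 5 the other way round. IGFBP7 exceeded IGFBP4 in 5 of 6, by 0.61 ± 0.54 (exact p = 0.0625, adjusted 0.0761), with pig 6 the exception. IGFBP4 exceeded IGFBP6 in 4 of 6, by 0.94 ± 1.17 (exact p = 0.125, adjusted 0.14), and IGFBP6 was the higher in pigs 4 and 5. IGFBP6 and IGF1 split evenly, 3 of 6 libraries each way, with a mean log2 ratio of 0.55 ± 1.51 (exact p = 0.469, adjusted 0.469). IGF1 exceeded IGF2R in 4 of 6 libraries, by 0.50 ± 0.69 (exact p = 0.156, adjusted 0.168), and IGF1R exceeded IGFBP2 in 4 of 6, by 1.67 ± 1.63 (exact p = 0.125, adjusted 0.14). A call needs 6 of 6 libraries in one direction, so 1 contrary library prevents it whatever the size of the ratio. These neighbours were therefore not called at this number of libraries, which does not show that their levels were equal. The further uncalled pairs were IGF1 and IGF1R, IGFBP6 and IGF2R, and IGFBP5 and IGFBP6, each in one direction in 5 of 6 libraries.

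**Figure D2:**
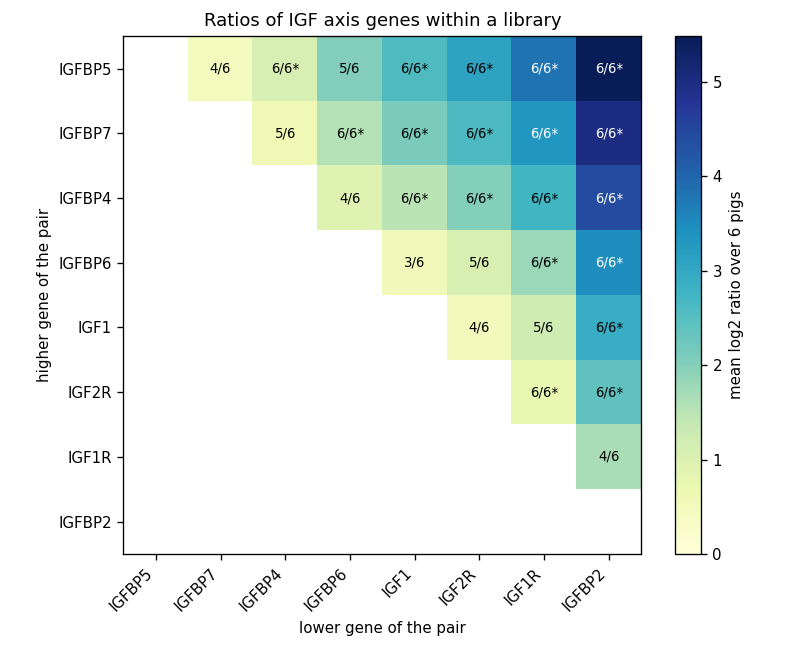
Mean log2 ratio of TPM over 6 pig libraries for each pair of the 8 members, the higher gene (vertical axis) over the lower one (horizontal axis), as a colour scale with the number of libraries in the direction of the mean written in each cell and an asterisk for an adjusted p of at most 0.05. An asterisk stands at 19 of 28 pairs, and of the 7 pairs of neighbours only at IGF2R and IGF1R.

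The make-up of the binding protein transcript pool, taken as the share of each in the summed TPM of the 5 measured binding proteins, differed between libraries. TPM measures transcripts, so neither these shares nor the ratios to IGF1 give amounts of secreted protein. IGFBP5 held 61.2%, 26.6%, 47.7%, 34.0%, 22.8% and 50.5% in pigs 1 to 6, 40.5% ± 15.0 (SD, n = 6), and was the largest in 4 of 6 libraries. IGFBP7 held 20.1%, 44.7%, 27.4%, 27.4%, 33.2% and 18.6%, 28.6% ± 9.53, and was the largest in pigs 2 and 5. Together these matrix-associated members formed the greater part of the pool in every library.

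IGFBP4 held 12.6% to 24.7%, 18.3% ± 4.48 (SD, n = 6). IGFBP6 held 22.7% and 23.3% in pigs 4 and 5 against 5.42% to 7.27% in the other 4, where its mean was 5.95% ± 0.883 (SD, n = 4). IGFBP2 held 2.01% and 1.43% in pigs 4 and 5 against 0.443% to 0.756% in the others. The shares of these last 2 did not overlap between pigs 4 and 5 and the rest, whereas those of IGFBP4, IGFBP5 and IGFBP7 did. A lack of overlap was common: by rescaled TPM 48.6% of the 8866 genes were below in both pigs and 12.3% above. It is therefore no trait of these binding proteins.

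**Figure D3:**
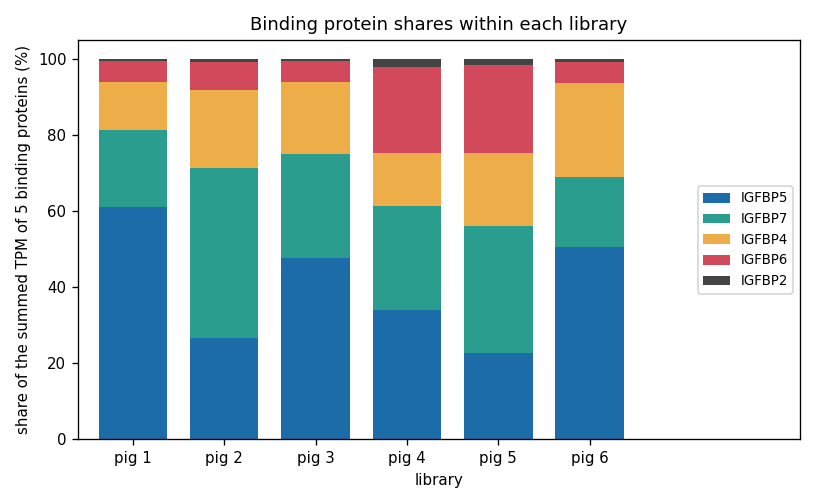
Share in percent of IGFBP2, IGFBP4, IGFBP5, IGFBP6 and IGFBP7 in their summed TPM, as a stacked bar from 0 to 100% for each of 6 pig libraries. IGFBP5 is the largest share in pigs 1, 3, 4 and 6 and IGFBP7 in pigs 2 and 5, and the share of IGFBP6 is widest in pigs 4 and 5.

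The summed binding proteins stood at 12.5, 8.47, 12.4, 34.2, 15.1 and 22.7 times IGF1 in pigs 1 to 6, 17.6 ± 9.44 (SD, n = 6), and at 14.0 ± 6.09 (n = 4) without pigs 4 and 5. Pig 4, with the least IGF1, had the highest ratio and pig 2 the lowest. The rescaled sum of the binding proteins was less uneven, at 2051, 949, 1461, 896, 1092 and 1290 TPM, a CV of 0.332 against 0.539 for IGF1. The rescaled sum of both IGF receptors was 138, 123, 113, 52.0, 42.1 and 132 TPM, below the binding protein sum in each library. These sums leave out IGF2 and IGFBP3, so the ratio of binding proteins to ligands is that of the transcripts of the measured genes.

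Across libraries the members did not move together as a set. On the rescaled scale pigs 4 and 5 were both below the other 4 libraries for 2 of 8 members, IGF1R and IGF2R, against 48.6% of the 8866 genes, and both above them for 2 of 8, IGFBP2 and IGFBP6, against 12.3% of genes. As deposited, 8 of 8 members were below and 0 above, where 99.1% of genes were below and 0.079% above. With the libraries centred on their median gene, 4 of 8 were below (IGF1R, IGF2R, IGFBP4 and IGFBP5) and IGFBP2 and IGFBP6 above, against 37.4% and 18.3% of genes. With quantile normalization, 2 of 8 were below and 2 above, against 27.0% and 29.3%. IGFBP2 and IGFBP6 thus lay above the others on the rescaled, median-centred and quantile scales and below them as deposited. Median-centring was done after adding 1 TPM, which lifts values near 0 in pigs 4 and 5. PAPPA, a protease of binding proteins, was below in both pigs after rescaling and above with median-centring. IGFBP2, at 0.601 and 0.739 TPM in those pigs as deposited, was open to the same lift, so median-centring is no separate check for it.

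Transcript length moved with this order. The longest RefSeq transcript had a median of 4313 bases among genes below in pigs 4 and 5, 1895 bases among genes above and 3583.5 bases among all genes with a length. The members below had long transcripts, 11557 bases for IGF1R and 7560 for IGF2R, and those above had short ones, 1385 bases for IGFBP2 and 1513 for IGFBP6. The values of IGF1, with 7282 bases, overlapped between pigs 4 and 5 and the others, as did those of IGFBP4, IGFBP5 and IGFBP7, with 780, 967 and 1120 bases, but the model of IGFBP4 holds its coding sequence alone and that of IGFBP5 holds 816 coding bases and little else, so these lengths are close to coding lengths. Marker sums of several other cell types moved too, but those of adipocyte, stromal and keratinocyte markers overlapped. The 10 stromal progenitor and fibroblast markers summed to 11877 and 20590 rescaled TPM in pigs 4 and 5. In the other 4 libraries that sum was 16732 to 32648 TPM, highest in pig 1. Sums of 3 skeletal muscle and 7 kidney markers were low, and lower in pigs 4 and 5 than in the rest. The kidney sum reached 16.1 and 15.7 TPM in pigs 1 and 6. In pigs 4 and 5 the rescaled sum was below the other 4 libraries for endothelial markers, as given above, for 9 smooth muscle and pericyte markers (647 and 737 against 904 to 1318 TPM), for 9 macrophage markers (604 and 430 against 698 to 932 TPM) and for 7 lymphoid markers (68.5 and 56.1 against 76.5 to 149 TPM), and the liver sum was above. The part of transcript length, of other cell types and of composition in the order of the members was not tested.

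**Figure D4:**
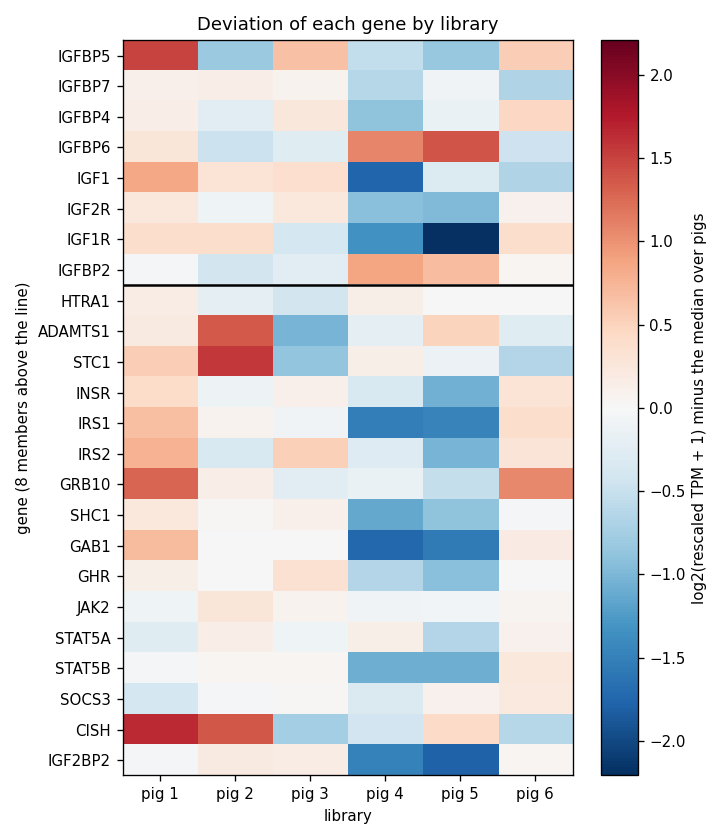
Log2(rescaled TPM + 1) minus the gene's median over 6 pig libraries, as a colour scale, for the 8 members (above the line) and for the 16 other genes of the IGF axis whose rescaled mean reached 10 TPM (below it), 1 column per library. In pigs 4 and 5 IGFBP2 and IGFBP6 are high and IGF1R and IGF2R low, and 7 of 16 other genes are low in both with 0 high in both.

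The members differed in how many other genes varied like them over the 6 libraries. Likeness was Pearson's r of log2(rescaled TPM + 1) with each of 8858 other genes. It is given as a description, since many genes have a high r over these 6 libraries, which differed in composition. Their depth is unknown. IGF1R had an r over 0.9 with 26.7% of genes and IGF2R with 22.8%, against 3.25% for IGFBP2, 2.87% for IGFBP6, 1.04% for IGFBP5, 0.982% for IGFBP4, 0.971% for IGF1 and 0.214% for IGFBP7. The receptors thus followed a pattern that much of the transcriptome had, and IGFBP7 followed one that few genes had.

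The genes most like IGF1 were FADS2, a fatty acid desaturase (r = 0.995, Spearman's rho 0.943, n = 6), and NMT2, an N-myristoyltransferase (r = 0.993, rho 1). IGF1R was most like TASOR2 (r = 0.999) and NUP188, a nucleoporin (r = 0.998), and IGF2R most like RCAN2, a calcineurin regulator (r = 0.998), and PLBD2 (r = 0.997). With the 2 libraries farthest from the median of IGF1R or IGF2R left out, which were pigs 4 and 5, these r were 0.998, 0.983, 0.968 and 0.996. IGFBP2 was most like BLMH, a cysteine protease (r = 0.997), and REX1BD (r = 0.995), and IGFBP6 most like RACK1, a ribosomal scaffold protein (r = 0.996), and XRCC6, the Ku70 subunit of DNA repair (r = 0.994). IGFBP5 was most like FBXL6 (r = 0.998) and EVC, a protein of primary cilia (r = 0.992). For IGFBP4 they were RXYLT1, a glycosyltransferase, and ADGB (r = 0.976 for each), and for IGFBP7 CD82, a tetraspanin (r = 0.976), and GDF11, a growth factor of the TGF-beta family (r = 0.972). The r of GDF11 dropped to 0.586 without pigs 4 and 6, the libraries farthest from the median of IGFBP7, and that of ADGB to 0.829 without the same pigs, the farthest for IGFBP4. For the remaining genes of this set r stayed at 0.912 or more without the farthest 2 libraries. All these genes were picked for a high r over 6 libraries that include the ones kept. A high r in the libraries kept is thus largely fixed by the choice and is no separate check.

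Between members, IGF1 and IGFBP7 had an r of 0.88 (rho 0.77, n = 6), and 0.90 without pigs 1 and 4, the libraries farthest from the median of IGF1. IGFBP2 and IGFBP6 had an r of 0.90 (rho 0.77) and IGF1R and IGF2R of 0.89 (rho 0.60), but without pigs 4 and 5 these were 0.35 and -0.49, so both rested on those libraries. Negative r of like size joined the receptors to the same binding proteins. IGF1R had -0.89 with IGFBP6 and -0.83 with IGFBP2, and IGF2R had -0.87 and -0.88. Without pigs 4 and 5 these were 0.07, 0.23, 0.67 and 0.59. IGF1 and IGFBP2 had an r of -0.77 (rho -0.71), and -0.37 without pigs 4 and 5. IGF2R and IGFBP5 had an r of 0.77 (rho 0.89), and 0.92 without pigs 4 and 5. The remaining pairs of members, each with an r smaller in size, are not listed. Some of them changed sign without pigs 4 and 5, such as IGFBP2 and IGFBP4, from -0.62 to 0.87. No p is attached to these values.

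The other genes of the axis were counted from a list of 32, of which 30 had a named ID. Of these, 26 were detected in at least 1 library, 18 in all 6, and 23 at over 1 TPM in at least 1 library. The remaining binding proteins were low. IGFALS, the acid-labile subunit that forms a ternary complex with IGF and its binding protein in blood, was at 1.87, 0.304, 1.22, 0.0389, 0.202 and 1.39 TPM in pigs 1 to 6, 0.838 ± 0.754 TPM as deposited. IGFBP1, a binding protein made mainly by liver, was at 0.436, 0.488, 0.899, 0.0777 and 0.125 TPM in pigs 1 to 5 and listed at 0 in pig 6, below each measured member in the same library. After rescaling IGFBP1 was at 1.74, 2.02, 3.43, 2.33, 2.63 and 0 TPM in pigs 1 to 6, highest in pig 3 and at 0 in pig 6.

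All 7 proteases of binding proteins and their inhibitors were detected, and 4 of 7 in every library. HTRA1, a secreted serine protease that cuts IGFBP5, was the highest, at 65.7, 48.5, 45.9, 8.50, 11.0 and 61.8 TPM as deposited, 40.2 ± 24.8 TPM (SD, n = 6). After rescaling HTRA1 was at 227 ± 33.0 TPM, with a CV of 0.145, so it varied less than any of the 8 members. PAPPA, the metalloprotease that cuts IGFBP4, was the lowest by mean, at 0.585, 1.33, 0.483, 0.0403, 0.0259 and 0.765 TPM, 0.538 ± 0.489 TPM. Its inhibitors STC1 and STC2, the stanniocalcins, differed in level. STC1 ran from 1.11 TPM in pig 4 to 22.0 TPM in pig 2 as deposited, with a median of 4.62 TPM, a mean of 7.47 TPM and a CV of 1.07, and without pig 2 its mean was 4.56 TPM. STC2 had a mean of 0.979 ± 0.781 TPM. STC1 stood above PAPPA in every library, by 19.0, 16.6, 8.77, 27.6, 50.6 and 6.56 times in pigs 1 to 6.

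Among related receptors INSR, the insulin receptor, was at 34.8, 23.4, 29.8, 2.75, 2.37 and 34.2 TPM as deposited, 21.2 ± 15.0 TPM (SD, n = 6), and at 102 ± 32.8 TPM after rescaling. INSR exceeded IGF1R in every library, by 2.27, 1.58, 3.20, 4.60, 5.37 and 2.11 times. INSRR, an orphan relative of both, was over 0.1 TPM in pig 1 alone, with a mean of 0.0557 ± 0.0485 TPM. Of 7 adaptors that link these receptors to signalling, 6 were detected, each in all 6 libraries, from GAB1 at 23.8 ± 18.5 TPM to GRB14, an inhibitor of the insulin receptor, at 1.61 ± 1.32 TPM.

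In the growth hormone arm, which drives IGF1 in liver, all 7 genes with an ID were detected. GHR, the growth hormone receptor, was at 216, 193, 261, 17.0, 19.7 and 206 TPM as deposited, 152 ± 106 TPM (SD, n = 6), and at 729 ± 222 TPM after rescaling, above 99.0% of named nuclear genes and above the rescaled mean of all 8 members. GHR stood at 5.28, 7.14, 8.51, 19.4, 5.75 and 13.8 times IGF1 in pigs 1 to 6. SOCS1, an inhibitor of cytokine signalling, was the lowest, at 0.908 ± 0.862 TPM. Of the RNA-binding proteins named for IGF2 mRNA, IGF2BP2 was at 4.11 ± 3.01 TPM, IGF2BP3 at 0.129 ± 0.0881 TPM, and IGF2BP1 was not detected at over 0.1 TPM.

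On the rescaled scale pigs 4 and 5 were both below the other 4 for 7 of 16 of these other genes whose rescaled mean reached that minimum (GAB1, GHR, IGF2BP2, INSR, IRS1, SHC1 and STAT5B) and both above for 0 of 16, against the 48.6% and 12.3% of all such genes. The counts changed with the scale, to 16 below and 0 above as deposited, 8 below and 0 above with median-centring, and 6 below and 2 above, JAK2 and SOCS3, with quantile normalization. Over all such genes 99.1% were below and 0.079% above as deposited. With median-centring these shares were 37.4% and 18.3%, and with quantile normalization 27% and 29.3%.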

How the data were processed

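The deposited values are gene TPM, made by the authors with Kallisto (version 0.43.0 in the submitters' processing notes). Sscrofa11.1 is the pig genome named there. An Ensembl annotation release is given for the study's reference genes, without stating that this table was quantified against it. TPM keep no read numbers, so the depth is unknown and no counting error can be given. The precision of a value comes only from the spread between 6 libraries.

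Symbols were matched by ID, which named 57.4% of 25880 IDs. Values were used as deposited and after rescaling over 14844 named nuclear genes. A gene was called detected at over 0.1 TPM. Differences between members were tested on the log2 ratio of TPM within each library with an exact two-sided sign-flip permutation test over the 6 libraries, adjusted by the Benjamini-Hochberg method over 28 pairs and called at an adjusted p of at most 0.05. The planned 45 pairs became 28, and the planned ratio to IGF1 plus IGF2 became a ratio to IGF1, since IGF2 and IGFBP3 had no value. The procedure was tested on simulated data. Positions, lengths and sequences are from the RefSeq annotation of Sscrofa11.1, matched by symbol, and coordinates count from 1.

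All members were reported. Other genes of the axis were named if they were the highest or lowest detected in their list or were PAPPA, STC1, STC2, IGFALS, INSR, GHR or IGFBP1, and the 2 genes of highest r were named for each member. GAB1, GHR, IGF2BP2, INSR, IRS1, SHC1, STAT5B, JAK2, SOCS3 and IGF2BP1 were also named where a count needed them, after their values were seen. The members and lists were chosen with earlier results of these data known. Alternatives were other scalings, a pseudocount of 1, quantile normalization, leaving out libraries, other shares and another measure of likeness. Analyses used Python 3.11.15, numpy 2.4.6, pandas 2.3.3, scipy 1.17.1 and matplotlib 3.10.9.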

Additional observations from a re-analysis of the deposited data

Results flagged for a closer look

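Of 55 sets of 6 values examined for a library far from the others, 1 was marked. STC2, the inhibitor of PAPPA, was at 9.07 rescaled TPM in pig 1 against 3.69 to 4.95 in the other 5 libraries. Chance alone marks about 1 in 20 sets.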

How the results depend on the processing

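The 28 mean log2 ratios between members kept their direction with a pseudocount of 1 and with quantile normalization, and 19 pairs were called under each. Both steps keep the order of genes within a library, and a call needs 6 of 6 libraries in one direction. The same 19 calls were therefore fixed in advance and are no check of them. With 1 library left out the exact permutation test cannot give a p below 0.0625, and with pigs 4 and 5 left out none below 0.125, so no pair can be called there. The pairs in one direction in every remaining library numbered 19 to 22 with 1 library left out and 22 without pigs 4 and 5. The ratio of IGF2R to IGF1R was 0.51 to 0.88 with 1 library left out and 0.41 without pigs 4 and 5. That of IGFBP6 to IGF1R went from 1.79 to 1.19 without pig 5 and to 0.61 without pigs 4 and 5. IGFBP6 to IGF1, not called in either case, reversed to -0.36 without pigs 4 and 5. The share of IGFBP5 was 36.3% to 44.0% with 1 library left out, 46.5% without pigs 4 and 5, 48.6% of the summed means, and 55.6% without IGFBP7 in the total. The sum of binding proteins over IGF1 was 14.2 to 19.4 with 1 library left out. Rescaling multiplied the values of a library by 3.80 (pig 6) to 29.9 (pig 4), a change of unit. That it moved the mean level of 8 of 8 members by more than 1 SD was thus fixed in advance. Quantile normalization moved the mean level of 2 of 8 members by more than 1 SD, IGFBP2 and IGFBP6. Of the 16 genes named as most like a member, 7 were also named by Spearman's rho and 13 with a minimum mean of 1 TPM. Over 6 libraries rho takes few values and genes can tie at 1, as BLMH and REX1BD did for IGFBP2. The overlap with rho may therefore depend on ties. Members below in pigs 4 and 5 numbered 8 as deposited and 4 with median-centring, and those above numbered 0 as deposited, against 2 and 2 after rescaling. These alternatives for the order of libraries were chosen after seeing the data. No paired analysis was possible because all 6 libraries belong to 1 group. Depth, transcript models and the animals behind the replicates limit every value.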
